A study of Mus musculus with 5 samples.

Results

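The cells described here were chosen by their UMIs of macrophage and monocyte genes in mouse back skin. Of these, 99 cells (66%) held few UMIs of other phagocyte genes. Among those 99 cells, 98 held at least 1 UMI of the glial genes Sox10, Cdh19 and Scn7a. The selecting genes were C1qa, C1qb, Csf1r, Lyz2 and Mrc1. A cell entered when these 5 genes together gave at least 6 UMIs (unique molecular identifiers, each standing for 1 captured transcript). It had to hold 0 UMIs of Cd207, of Cd3e and Cd3g, and of Prox1, Flt4 and Mmrn1, and under 20 UMIs of Krt14 and Krt5 per 10000. Of 34041 cells with 500 to 8000 genes and at most 10% mitochondrial UMIs, 150 met this rule. Mutant libraries gave 41 and 29 of them, and control libraries 38 and 42.

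Mutant skin came from female mice of the genotype Lepr-Cre;mTmG;Smo+/- and control skin from female Lepr-Cre;mTmG mice, all at postnatal day 46. Both genotypes therefore carried Lepr-Cre, a recombinase expressed where the leptin receptor gene is active, and mTmG, a reporter that changes from membrane tomato to membrane GFP in cells where the recombinase has acted and in their progeny. Smo encodes Smoothened, which passes on the Hedgehog signal. The labels do not state how the Smo allele was altered, and the protocol text writes the control with Smo after the reporter and no allele sign. Whole, unsorted skin was captured with version 3 of the 10x Genomics 3′ chemistry in 2 libraries per genotype, which the protocol calls technical replicates. In what follows n = 2 counts libraries, and p-values measure only the spread between these preparations. A library of GFP-sorted cells from day 50 was not analysed here.

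Macrophages are tissue phagocytes that take up dying cells and debris, and in skin they lie mostly in the dermis. Most express the complement genes C1qa and C1qb, the growth factor receptor Csf1r and the mannose receptor Mrc1. Monocytes are their circulating relatives and carry much lysozyme, the bacterial wall-cleaving enzyme, which mice encode in 2 neighbouring genes, Lyz2 (lysozyme M) and Lyz1 (lysozyme P). Schwann cells are the glia of peripheral nerves. Myelinating ones wrap single axons in myelin, while non-myelinating ones hold several thin axons and also line nerve endings in the skin.

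Lyz2 supplied 95.6% of the UMIs that met the rule. Its transcript runs on the minus strand at chr10:117277331-117282321, with Lyz1 beside it at chr10:117287797-117292868 (GRCm38). The start regions of both genes are shown because the 2 groups of selected cells differed in how much of each lysozyme they held. Each line gives 250 bases before to 50 bases after the start from RefSeq (GRCm38.p6, minus strand), at chr10:117282223-117282522 for Lyz2 and chr10:117292819-117293118 for Lyz1, and capitals mark the longest run that is identical in both. Of the 5 selecting genes, 3 had an entry.
Lyz2: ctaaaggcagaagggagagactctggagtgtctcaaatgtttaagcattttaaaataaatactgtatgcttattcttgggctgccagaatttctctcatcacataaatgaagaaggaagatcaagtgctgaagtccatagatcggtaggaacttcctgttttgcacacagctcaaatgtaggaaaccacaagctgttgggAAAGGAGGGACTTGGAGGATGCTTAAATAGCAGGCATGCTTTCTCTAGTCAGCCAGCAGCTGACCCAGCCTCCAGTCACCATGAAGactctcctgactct
Lyz1: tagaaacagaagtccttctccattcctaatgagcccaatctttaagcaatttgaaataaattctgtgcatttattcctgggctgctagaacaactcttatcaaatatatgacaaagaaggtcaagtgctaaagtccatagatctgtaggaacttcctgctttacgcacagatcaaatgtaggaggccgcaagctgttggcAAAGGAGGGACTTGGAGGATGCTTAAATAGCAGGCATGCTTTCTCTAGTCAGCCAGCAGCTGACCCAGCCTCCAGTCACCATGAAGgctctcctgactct
The shared run was 86 bases long, and 201 of the 300 positions held the same base in both genes. Near the 3′ end, where this chemistry reads, 76 of 451 windows of 50 bases in the last 500 bases of the Lyz2 transcript also occurred in Lyz1 (16.9%), so a share of reads cannot be assigned to either gene with certainty.

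The deposited libraries totalled 147245343 to 171197845 UMIs, and the selected cells had a median of 7586 UMIs and 2309 genes. No selected barcode occurred in more than 1 library, while 24 to 46 kept barcodes were shared between pairs of libraries. The doublet caller marked 177 and 129 kept cells in mutant libraries and 176 and 159 in control libraries, 0 of them selected. In control 1 its own threshold of 0.6 marked 0 cells, so the median threshold of the other libraries, 0.237, was used there. A cell was set apart at 20 or more UMIs of S100a8 and S100a9 together. The cutoff was 100 UMIs for the keratinocyte marker list and for hemoglobin genes. The selected cells stood apart in 6 cases, all in mutant libraries. In the mutant libraries 3 cells held 231, 170 and 220 UMIs of S100a8 and S100a9, genes of neutrophils. Another 2 held 264 and 436 UMIs of the keratinocyte marker list, and 1 held 2500 UMIs of hemoglobin genes. They held 12.3% and 28.6% of the glial group's UMIs in mutant libraries. Tests, and the levels named as moved by these cells, are given with and without them, a comparison added after they were seen.

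The cells were divided by 5 genes that the rule did not use. This phagocyte set was Tyrobp, Fcer1g, Cd74, Laptm5 and Ctss, which encode signal adaptors, an antigen presentation chaperone and lysosomal proteins of myeloid cells. A cell was put in the phagocyte group when it held at least 10 UMIs of the set, and in the glial group otherwise, a division chosen after the data were seen. The glial group had 99 cells, 28 and 15 in mutant libraries and 26 and 30 in control libraries, and these held 0 to 5 UMIs of the set. The phagocyte group had 51 cells, 13 and 14 in mutant libraries and 12 and 12 in control libraries, and these held 16 to 576 UMIs, with a median of 123. The glial group was named for 3 genes of the Schwann lineage that the division did not use, the transcription factor gene Sox10, the cadherin gene Cdh19 and the sodium channel gene Scn7a. Of its 99 cells 98 held at least 1 UMI of these, with a median of 6 and a maximum of 28 UMIs, and all 51 cells of the phagocyte group held 0.

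**Figure D1:**
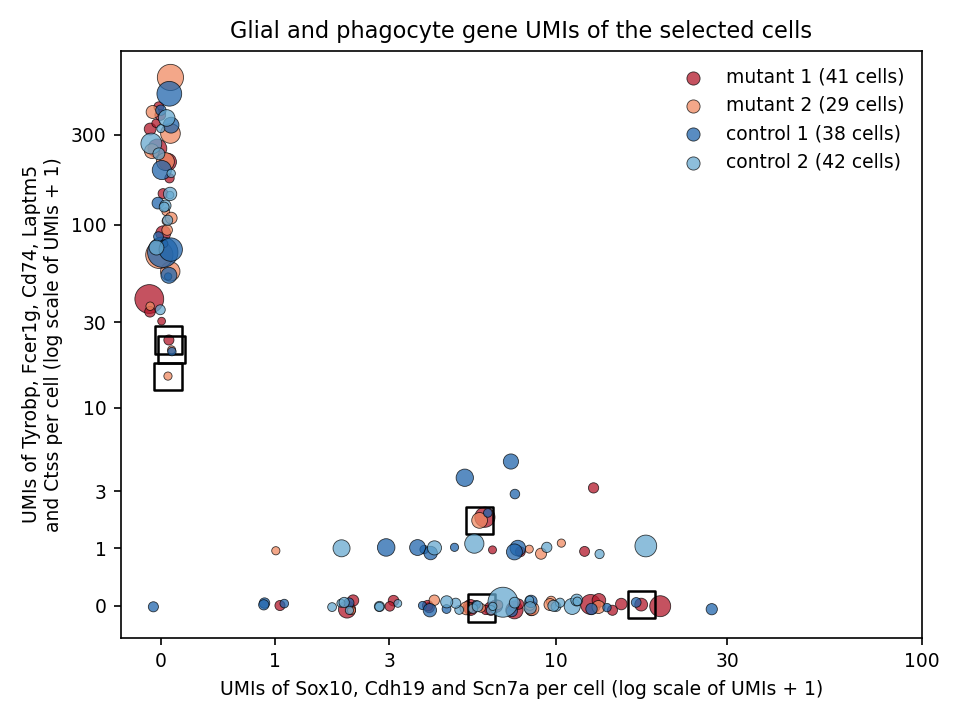
Each point is a selected cell, with its UMIs of Sox10, Cdh19 and Scn7a across and of the 5 phagocyte genes upwards (log scales of UMIs + 1), coloured by library and sized by its Lyz2 UMIs. Squares mark the 6 cells that stood apart. The 99 glial group cells lie along the bottom, with 0 to 5 phagocyte UMIs, and the 51 phagocyte group cells along the left edge, with 0 UMIs of the 3 glial genes, as had 1 cell of the glial group.

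The label of macrophages and monocytes thus did not hold for most of the selected cells. In the glial group, 99.9% of the UMIs of the selecting genes were Lyz2, C1qa, C1qb and Mrc1 had 0 UMIs, and Csf1r had 2. By counting error alone, a count of 0 in 99 cells allows a share of up to 3.03% with a C1qa UMI. This limit takes the cells as independent and covers no spread between libraries, and C1qa was itself a selecting gene. Of the 15 genes in the macrophage marker list, 9 were at 0 in this group, among them Adgre1 (the F4/80 antigen), Cd163 and Pf4. The common leukocyte antigen Ptprc was found in 1 of the 99 glial group cells and in 41 of the 51 phagocyte group cells. Il1b and Cybb, which neither the rule nor the division used, averaged 1590 and 484 CPM in the phagocyte group and had 0 UMIs in the 99 glial group cells. In the phagocyte group 14 of the 15 macrophage genes had UMIs, but C1qa was present in only 7 cells and C1qb in 8.

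By library, Lyz2 in the glial group summed to 986 and 331 UMIs in mutant and 731 and 1002 in control libraries. In the phagocyte group it summed to 588 and 825 UMIs in mutant and 853 and 389 in control libraries. Mutant and control values overlapped in both groups. In counts per 1000000 UMIs of the summed group (CPM), pooled Lyz2 was 3700 in the glial group and 6880 in the phagocyte group, against 5.46 in all other kept cells. Lyz1 had 6 and 1 UMIs in mutant and 5 and 5 in control libraries of the glial group. In the phagocyte group it had 33 and 56 UMIs in mutant and 81 and 122 in control libraries. The pooled Lyz1 level was 20.6 CPM in the glial group and 756 CPM in the phagocyte group, so the glial group held lysozyme transcripts almost entirely as Lyz2. These values were fixed in part by the rule and are given as a description.

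**Figure D2:**
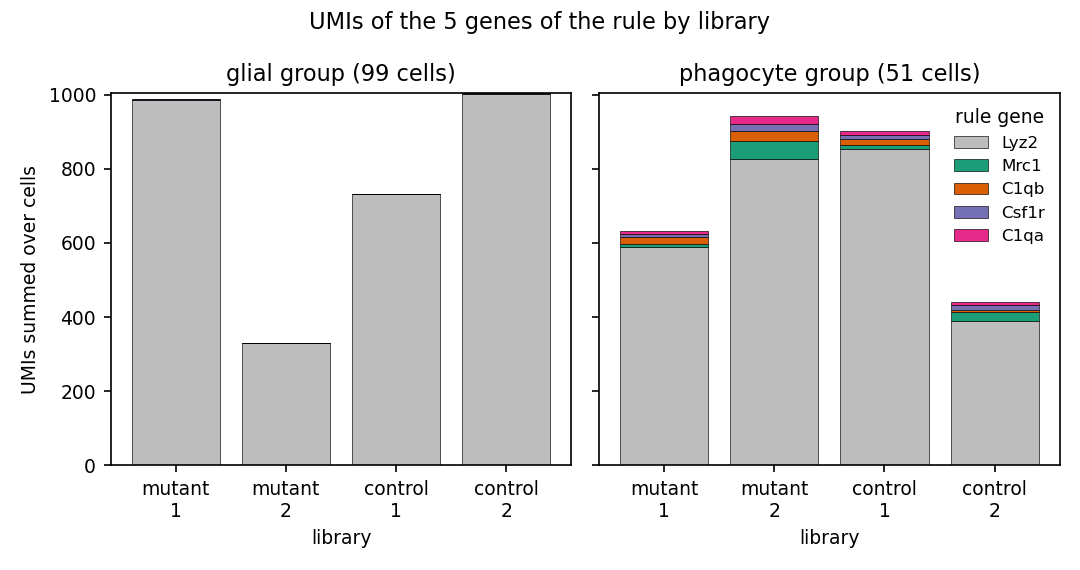
Bars give the UMIs of the 5 selecting genes summed over the cells of each library (vertical axis), for the glial group (99 cells) and the phagocyte group (51 cells), with mutant libraries left of control libraries and colours for the genes. Lyz2 makes up nearly the whole bar in the glial group, while C1qa, C1qb, Csf1r and Mrc1 are visible only in the phagocyte group.

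Cells just inside and just outside the threshold held both kinds. Of 23 selected cells with 6 to 8 UMIs of the selecting genes, 15 had a UMI of Sox10, Cdh19 or Scn7a and 8 had at least 10 phagocyte UMIs. Of 61 cells with 3 to 5 UMIs that passed the other filters, 44 had a UMI of these 3 genes and 7 had at least 10 phagocyte UMIs. Before any exclusion, 428 cells reached 6 UMIs, and these held 541 C1qa UMIs. The 250 of them with a Cd207 UMI held 494 C1qa UMIs, against 47 in the selected cells. Cd207 encodes langerin, the marker of Langerhans cells, the epidermal relatives of macrophages. Allowing up to 10 Cd207 UMIs per 10000 added 5 and 11 cells in mutant and 4 and 13 in control libraries. Of the added cells, 1 and 2 in mutant and 1 and 2 in control libraries had at least 20 UMIs of C1qa, C1qb and C1qc together, against 1 and 1 in mutant and 1 and 0 in control libraries among the selected. Most C1q RNA in cells that met the threshold was therefore outside the selection.

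Clustering divided the 150 cells into 8 clusters, named only from marker lists and described without a test. A marker passed with a UMI in at least 0.1 of a cluster's cells and a log2 ratio of at least 1 to all other kept cells. In the smallest clusters 1 cell could be enough, as for Cd163 in cluster 8. Clusters 1, 3 and 4, with 28, 24 and 22 cells, were Schwann-cell-like, with 5, 4 and 4 of the 6 Schwann markers detected and enriched. Cluster 1 was led by the potassium channel gene Kcna2, G0s2 and Aspa. Cluster 3 was led by Tmem200a and also by Fxyd7, Sncg and Dhh, the desert hedgehog ligand that Schwann cells secrete. Cluster 4 was led by the urea transporter Slc14a1 and Gna14. The brain-derived neurotrophic factor gene Bdnf reached 1330 CPM in cluster 4 and 974 CPM in cluster 3, against 67.3 CPM in cluster 1. All 3 clusters held cells of each library, with 1 to 9 cells per library.

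Cluster 2, with 25 cells, stayed unnamed because 4 Schwann markers and 4 fibroblast markers stood beside each other. Its leading genes were Dcn and Lum, proteoglycans of collagen fibres, Serpinf1, the monocyte attractant Ccl2 and Eln, which encodes elastin. Dcn was present in 14 of its cells at 2160 CPM, and Col1a1 in 17 cells at 1070 CPM. Gpm6b, a membrane protein gene of glia and neurons, was found in 24 of the 25 cells at 1930 CPM. None of these cells passed the doublet threshold, but 7 of the 8 selected cells with a doublet score of at least 0.14 were in this cluster, with a highest score of 0.219, against a median of 0.0287 over all 150 cells. The part of fibroblast RNA or of doublets in these cells was not tested.

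Cluster 5, with 21 cells, was monocyte-like, with 10 of 12 monocyte markers, and was led by Plac8, Fcgr4, Slpi and Ly6c2. It also held 4 of 7 neutrophil markers, and the cells set apart for S100a8 and S100a9 were all in it. Another 2 of its cells belonged to the glial group and were those set apart for keratinocyte genes. Cluster 7, with 10 cells, passed 9 of 15 macrophage, 8 of 13 dendritic cell and 6 of 12 monocyte markers, and is left unnamed. It was led by Ccr7, the receptor that guides migrating dendritic cells to lymph nodes, and contained Ccl22. In this cluster 5 of the 10 cells came from the mutant 1 library. Cluster 8, with 7 cells, was macrophage-like with 14 of 15 markers and was led by the chemokine genes Ccl8 and Ccl12, Cbr2 and Pf4. It had 1 and 3 cells in mutant and 1 and 2 in control libraries. Cluster 6, with 13 cells, passed 7 of 15 macrophage markers, 3 of them selecting genes, and 2 markers each of monocytes and dendritic cells. C1qa was at 0 there and C1qb in 1 cell, and it was left unnamed, a choice made after its values were seen. It was led by Dcstamp, which acts in the fusion of myeloid cells, Lyz1 and the protease gene Mmp12 being among its other leading genes. Lyz1 was found in 10 of its 13 cells at 2600 CPM, the highest level of the 8 clusters.

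**Figure D3:**
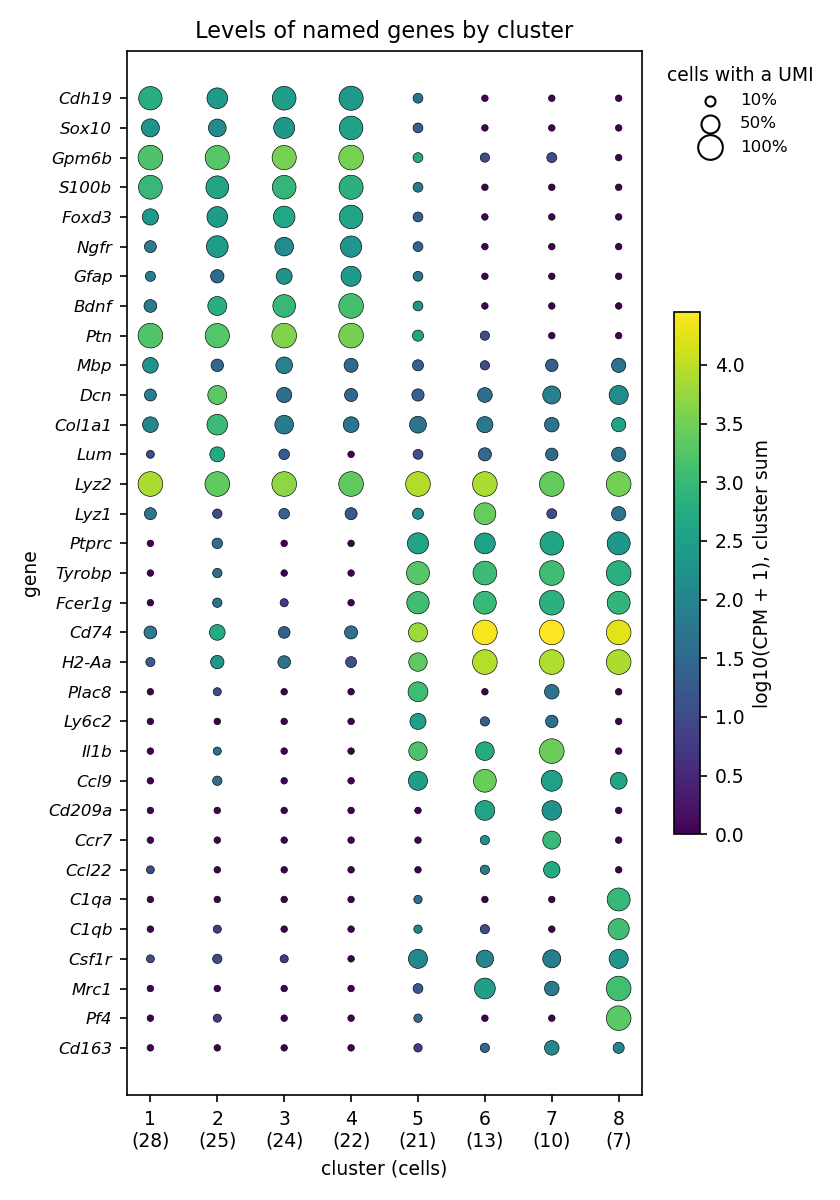
Columns are the 8 clusters with their cell numbers, rows are genes, dot size is the share of cells with a UMI, and colour is log10(CPM + 1) of the cluster sum. Gpm6b, S100b and Ptn are in most cells of clusters 1 to 4 and Tyrobp in most cells of clusters 5 to 8, Cd74 is in 12 of the 21 cells of cluster 5 and in every cell of clusters 6 to 8, and Lyz2 is present in every cluster.

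The glial group expressed many genes of the Schwann lineage. Sox10, the transcription factor gene that Schwann cells need, had 227 and 145 CPM in mutant libraries and 250 and 255 CPM in control libraries, and was found in 65 of the 99 cells. Cdh19 had 342 and 374 CPM in mutant and 250 and 298 CPM in control libraries, in 87 cells. Gpm6b had 2720 and 1820 CPM in mutant and 3350 and 2830 CPM in control libraries. Both control values lay above both mutant values for Sox10 and Gpm6b, and below them for Cdh19, while 36.2% of the 3978 genes tested in the group did not overlap either (34.3% of 4000 without the cells that stood apart). None of the 3 passed the test (edgeR adjusted p = 0.947 for Sox10, 0.839 for Gpm6b and 0.897 for Cdh19). The log2 fold change of Sox10 was -0.34 ± 0.274 SE on all cells and -0.16 ± 0.254 without the cells that stood apart. The calcium-binding protein gene S100b had 672 and 595 CPM in mutant and 746 and 708 CPM in control libraries, and was found in 92 of the 99 cells. Without the cells that stood apart S100b had 719 and 798 CPM in mutant libraries, which overlapped the control values. Foxd3, a transcription factor of neural crest and its glia, had 441 and 264 CPM in mutant libraries, against 302 and 332 CPM in control libraries. Without the cells that stood apart Foxd3 had 489 and 357 CPM in mutant libraries, both above the control values. It did not pass the test there (log2 fold change 0.46 ± 0.232, edgeR adjusted p = 0.91). The neurotrophin receptor gene Ngfr was present in 55 cells and the filament gene Gfap in 34.

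Of 9 myelin genes summed, 8 had UMIs in the glial group, and their sum was 989 and 910 CPM in mutant libraries and 1060 and 1080 CPM in control libraries. Pooled, the sum was 1020 CPM in the glial group, against 560 CPM in all other kept cells. Ncmap, which encodes a protein of myelin, had 0 UMIs in all 4 libraries of the glial group. Mbp, which encodes a structural protein of myelin, had 49.5 and 93.6 CPM in mutant and 90.5 and 56.1 CPM in control libraries, in 33 of the 99 cells. Pooled Mbp was 69.2 CPM in the glial group and 61.4 CPM in all other kept cells.

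Secreted factors that act on nerves were also detected in the group. Pleiotrophin (Ptn), a growth factor for axons, had 2600 and 1730 CPM in mutant and 3730 and 2960 CPM in control libraries, and was present in all 99 cells. Bdnf had 845 and 731 CPM in mutant and 1090 and 820 CPM in control libraries. Gdnf, a survival factor for sensory neurons, had 412 and 476 CPM in mutant and 573 and 419 CPM in control libraries. Bdnf was found in 64 cells and Gdnf in 63, against 0 and 0 of the 51 phagocyte group cells. Apod, which encodes a lipid carrier made by glia, averaged 2740 CPM over the pooled group, and the complement gene C4b 1200 CPM. Relative to all other kept cells, genes with at least 100 CPM in the group ranked by ratio in the order Lyz2, Ntm, Gfap, Entpd3, Col28a1 and Cdh19. The place of Lyz2 in this order was fixed in part by the rule. Ntm, a cell adhesion gene, stood at 171 CPM against 1.11 CPM elsewhere, and Entpd3, an ectonucleotidase, at 201 CPM against 1.98 CPM. The mutant 2 library held only 34 CPM of Gfap and 68 CPM of Entpd3, against 112 to 317 and 202 to 259 CPM in the other libraries.

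The phagocyte group held genes of antigen presentation, iron storage and inflammation, named here as examples. Cd74, the invariant chain of class II molecules and a gene that defined the group, had 20700 and 19300 CPM in mutant libraries and 16000 and 18300 CPM in control libraries. H2-Aa had 6760 and 7070 CPM in mutant and 5770 and 6310 CPM in control libraries, and was found in 43 of the 51 cells. Both genes were higher in each mutant library than in each control library, by less than the fit could separate (log2 fold change 0.22 ± 0.194 for Cd74 and 0.19 ± 0.187 for H2-Aa, SE; edgeR adjusted p = 0.931 for each). Of the 1470 genes tested in this group, 35.7% did not overlap between the genotypes, and 35.9% of 1446 without the cells that stood apart. The heavy chain of the iron store ferritin, Fth1, averaged 33100 CPM, and Hmox1, the heme-degrading enzyme, 7450 CPM, against 681 CPM in the glial group. The endotoxin coreceptor gene Cd14 had 1000 and 1420 CPM in mutant and 3220 and 1490 CPM in control libraries. The interleukin gene Il1b had 2150 and 1320 CPM in mutant and 1480 and 1380 CPM in control libraries, in 29 cells.

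Genes with at least 100 CPM in the phagocyte group ranked by their ratio to all other kept cells in the order Lyz1, Cd209d, Ccl6, Wfdc17, Retnla and Cd209a. The chemokine gene Ccl6 had 423 and 531 CPM in mutant and 749 and 443 CPM in control libraries. The resistin-like gene Retnla had 29.5 and 861 CPM in mutant and 0 and 162 CPM in control libraries, and came from only 4 cells. Ccr7 had 1110 and 10.0 CPM in mutant libraries and was at 0 in both control libraries, in 6 cells, most of them in the mutant 1 library. With 12 to 14 cells per library, single cells thus set the level of several genes.

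The selected cells took a share of 0.48% and 0.329% of kept cells in mutant libraries and 0.459% and 0.5% in control libraries. The mean was 0.404% ± 0.107 in mutant and 0.48% ± 0.029 in control libraries (SD, n = 2 each), and the values overlapped (two-sided exact permutation test, p = 0.667, the smallest possible being 0.333). The glial group made up 0.328% and 0.17% of kept cells in mutant and 0.314% and 0.357% in control libraries (exact permutation p = 0.667). The phagocyte group made up 0.152% and 0.159% in mutant and 0.145% and 0.143% in control libraries. The phagocyte shares did not overlap (exact permutation p = 0.333). As a share of macrophage-rule, Langerhans and T cells together, the selected cells were 3.93% and 2.67% in mutant and 3.07% and 3.11% in control libraries (exact permutation p = 1). Because the rule needs a fixed number of UMIs, these shares also move with depth.

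Whether the genotypes differed in expression was tested on UMI sums per library. In the fit of all selected cells, 4 of 4910 genes were called (0.0815%), at an adjusted p under 0.05 and a log2 fold change of at least 1 in size, and all 4 were higher in mutant libraries. S100a8 summed to 134 and 161 UMIs in mutant and 2 and 1 UMIs in control libraries. S100a9, its partner in the calprotectin complex of neutrophils and monocytes, summed to 102 and 229 UMIs in mutant and 0 and 1 in control libraries. The ratio of summed CPM was 113 for S100a8 (95% counting interval 38.5 to 553) and 382 for S100a9 (68.1 to 15100), with edgeR adjusted p-values of 0.00364 and 0.0242. These intervals count each UMI as independent and cover no spread between cells or libraries. Krt77, a type II keratin gene, summed to 88 and 34 UMIs in mutant and 7 and 6 in control libraries (log2 fold change 3.40 ± 0.389 SE, adjusted p = 0.0242). Sbsn, a gene of cornifying epidermis, summed to 61 and 49 UMIs in mutant and 9 and 12 in control libraries (2.66 ± 0.346, adjusted p = 0.0404). For each of the 4 genes both mutant libraries were above both control libraries, which adds nothing to calls made on the same values. The share of all genes separated in this way was not counted for the selected cells.

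These differences rested on few cells, picked by genes of the same kinds, so losing the calls without them is no separate test. The 6 cells that stood apart held 98.3% of the S100a8 and 100% of the S100a9 UMIs of mutant libraries, and 88.5% of Krt77 and 79.1% of Sbsn. Without them, Sbsn had 19 and 4 UMIs in mutant and 9 and 12 in control libraries, and its log2 fold change was 0.51 ± 0.505. Without them 0 of 4823 genes were called by edgeR, with 307 at an unadjusted p under 0.05 (6.37%), and 303 (6.17%) before. Leaving out the mutant 1, the mutant 2 or the control 2 library ended all calls as well, and leaving out the control 1 library gave 52. Each such fit has 1 library in 1 genotype, which is assumed to vary like the libraries of the other. DESeq2 called 11 genes on all cells.

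**Figure D4:**
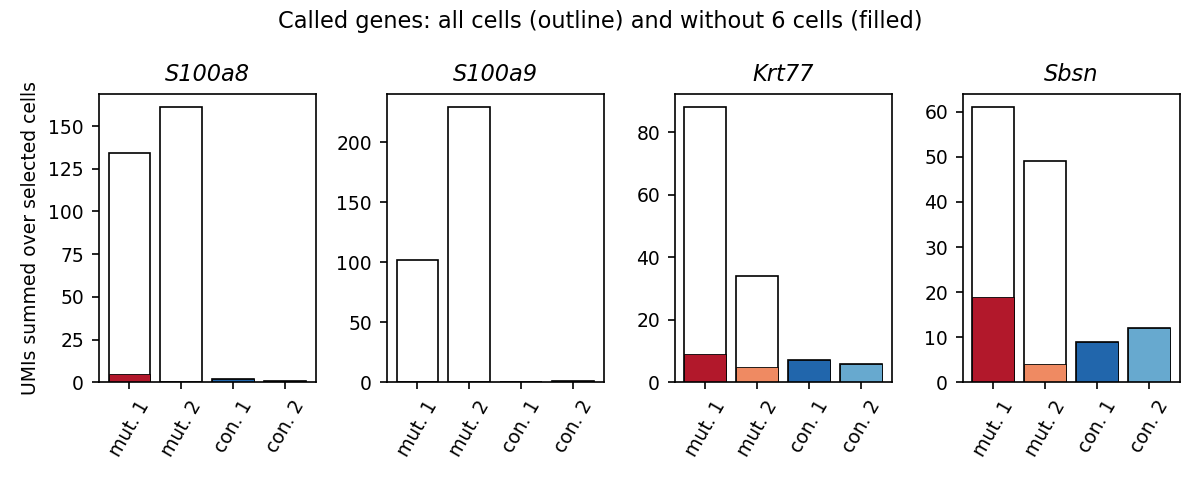
Panels show the UMIs of the 4 called genes summed over selected cells in each library (vertical axes from 0), for all cells (outline) and without the 6 cells that stood apart (filled), with mutant libraries left of control libraries. The outlined mutant bars stand above the control bars, and most of their height is absent from the filled bars.

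Within the glial group 5 of 3978 genes were called (0.126%), with 243 (6.11%) at an unadjusted p under 0.05. All 5 were higher in mutant libraries and all are genes of keratinocytes: Krt77, Sbsn, Dmkn, Perp and Lgals7. Dmkn, a secreted protein of the upper epidermis, had 346 and 782 CPM in mutant and 43.1 and 47.5 CPM in control libraries (log2 fold change 3.65 ± 0.429, edgeR adjusted p = 0.00221). The 6 cells that stood apart held 81.3% of the Dmkn UMIs of all selected mutant cells. Without them its log2 fold change in the glial group was 0.53 ± 0.52 and 0 of 4000 genes were called, with 214 (5.35%) at an unadjusted p under 0.05. Krt77 and Sbsn were no longer among the genes tested there. The keratinocyte list summed to 1830 and 4520 CPM in mutant and 715 and 747 CPM in control libraries of the glial group, with all 11 genes detected. Without the cells that stood apart the mutant sums were 851 and 1010 CPM. Fibroblast markers summed to 5390 and 3000 CPM in mutant and 3840 and 6120 CPM in control libraries. Leaving out the mutant 1 library raised the glial count to 153, leaving out the mutant 2 or the control 2 library ended it, and leaving out the control 1 library gave 3.

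Within the phagocyte group 2 of 1470 genes were called (0.136%), S100a8 and S100a9, and 88 (5.99%) had an unadjusted p under 0.05. They stood at 1320 and 1610 CPM and at 1000 and 2290 CPM in mutant libraries, and both had 0 UMIs in control libraries. Against a limit of 3 UMIs over the control group, S100a8 was at least 90.1-fold higher and S100a9 at least 101-fold higher in mutant libraries (edgeR adjusted p = 0.00236 and 0.0111). These limits cover counting error only, not the spread between cells or libraries. All of the S100a9 UMIs and all but 5 of the S100a8 UMIs came from 3 cells. Without the cells that stood apart 0 of 1446 genes were called, with 87 (6.02%) at an unadjusted p under 0.05. S100a8 and S100a9, by which 3 of these cells were picked, were no longer among the genes tested. The neutrophil list summed to 2410 and 4010 CPM in mutant and 10.9 and 43.3 CPM in control libraries, with Ly6g at 0. Without the cells that stood apart the mutant sums were 90.5 and 21.0 CPM. Fibroblast markers summed to 364 and 4820 CPM in mutant and 1660 and 281 CPM in control libraries of the phagocyte group. Leaving out the mutant 1 or the mutant 2 library ended these calls, while leaving out the control 1 or the control 2 library gave 23 and 17.

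The other gene lists held no called gene in any of these fits. In the glial group, 13 of 13 Schwann lineage genes were tested, 0 were called, 6 had positive fold changes, and their median log2 fold change was -0.09, against 0.00 over all genes. Without the cells that stood apart 9 of these 13 had positive fold changes and the median was 0.08, so its sign changed. The median over all genes was not set beside this second value. The 9 non-myelinating Schwann cell genes gave 8 tested, 0 called and a median of -0.01 with 4 positive, and 0.04 with 7 positive without those cells. Of 9 neurotrophic genes 4 were tested and 0 called. Ptn had the lowest adjusted p of these 4, at 0.692, with a log2 fold change of -0.56 ± 0.198. In the phagocyte group, 10 of 15 antigen presentation genes were tested, 0 were called and the median was 0.13. The macrophage list is not read here, because 4 of its 9 tested genes were selecting genes. Of 18 lysosome genes 17 were tested and 0 called, with a median of 0.04. On counts simulated on the glial group's sums, edgeR recovered 74 of 100 genes changed 4-fold and 24 of 100 changed 2-fold, and on the phagocyte group's sums 77 and 14. It also called 4 unchanged genes in the glial and 5 in the phagocyte simulation. Every simulated gene had the same dispersion and no single cell stood out, so the recovery may not carry over to the real counts.

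Hedgehog genes were near the limit of detection. Smo had 8 and 5 UMIs in mutant and 4 and 2 in control libraries over the selected cells. Its target Ptch1 had 13 and 4 UMIs in mutant and 12 and 9 in control libraries (log2 fold change -0.08 ± 0.497, edgeR adjusted p = 0.991). Of the 10 Hedgehog pathway genes 2 were tested and 0 called. Lepr was found in 2 of the 99 glial group cells and 6 of the 51 phagocyte group cells. The GFP reporter reached 5 UMIs in 1 and 0 glial group cells of mutant and 1 and 0 of control libraries, and in no phagocyte group cell. Thinned to 2000 UMIs, 10% and 6.9% of selected cells in mutant and 13.2% and 0% in control libraries held a GFP UMI, against 11.4% and 10.4% of keratinocytes in mutant and 10.3% and 11.2% in control libraries. These shares were around the keratinocyte background and are not read as expression. Tomato had a UMI in 94 of the 99 glial and 42 of the 51 phagocyte group cells.

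The share of cells with a UMI was also compared for 23 named genes after thinning. Mutant and control libraries did not overlap for 7 of them, and 33% of the 3032 genes found in at least 10% of cells did not overlap either. Tyrobp was found in 30% and 41.4% of cells in mutant and 28.9% and 29.3% in control libraries (exact permutation p = 0.333, the smallest possible). Cdh19 was found in 45% and 31% of cells in mutant and 36.8% and 41.5% in control libraries (p = 1, exact permutation test). The mutant 2 library was the highest for Tyrobp and the lowest for Cdh19, and the glial group made up 51.7% of its selected cells, against 68.3% in mutant 1 and 68.4% and 71.4% in the control libraries.

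The genotype difference of all selected cells, 66% of them glial group, was then set against that of Langerhans cells and of T cells. The same libraries were used, with the library as a block. Against Langerhans cells, 22 of 8830 genes differed in their mutant-to-control ratio (0.249%). The ratio was higher in the selected cells for 20 of them (0.227%) and lower for 2 (0.0227%), and 649 genes (7.35%) had an unadjusted p under 0.05. Against T cells, 61 of 11755 genes differed (0.519%), 53 higher (0.451%) and 8 lower (0.0681%), with 781 (6.64%) at an unadjusted p under 0.05. Without the 6 cells that stood apart, the Langerhans count was 17 of 8830 (0.193%), 14 higher (0.159%) and 3 lower (0.034%), with 641 (7.26%) at an unadjusted p under 0.05. The T cell count without them was 25 of 11677 (0.214%), 18 higher (0.154%) and 7 lower (0.0599%), with 717 (6.14%) at an unadjusted p under 0.05. Of the genes called without these cells, 10 and 21 were also called on all cells. Genes called both ways are named here, a choice made after their values were seen. The Langerhans count was 108, 49 and 5 without the mutant 1, the mutant 2 and the control 1 library, and the T cell count 142 and 31 without the mutant 1 and the control 1 library.

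Class II genes were among those that differed from Langerhans cells. Cd74 had 6130 and 8900 CPM in mutant and 4590 and 5240 CPM in control libraries of the selected cells. In Langerhans cells it had 6740 and 5670 CPM in mutant and 11000 and 10200 CPM in control libraries. The difference of the log2 ratios was 1.42 ± 0.227 (edgeR adjusted p = 0.0239), and H2-Eb1 and H2-Ab1 gave 1.67 ± 0.232 and 1.38 ± 0.241 (adjusted p = 0.0101 and 0.0433). For all 3 genes both mutant values lay above both control values in the selected cells and below them in Langerhans cells. The genes were named for calls on these same values, so this adds nothing to the calls. The share of all genes with this pattern was not counted. Within the phagocyte group alone, where nearly all selected Cd74 UMIs lay, its log2 fold change was 0.22 ± 0.194. The activation gene Cd83 had 273 and 156 CPM in mutant and 58.6 and 67.9 CPM in control libraries of the selected cells, and 216 and 185 CPM in mutant and 482 and 399 CPM in control libraries of Langerhans cells (difference 2.92 ± 0.349, adjusted p = 0.00408). Enpp2, the enzyme autotaxin, went the other way, with 593 and 207 CPM in mutant and 750 and 565 CPM in control libraries of the selected cells, and 379 and 232 CPM in mutant and 84.6 and 126 CPM in control libraries of Langerhans cells (difference -2.30 ± 0.359, adjusted p = 0.0201). Within a group, Cd83 did not pass in the phagocyte group (log2 fold change 1.54 ± 0.518, edgeR adjusted p = 0.585). Neither did Enpp2 in the glial group (-0.56 ± 0.314, edgeR adjusted p = 0.889). The phagocyte share of selected cells was 31.7% and 48.3% in mutant and 31.6% and 28.6% in control libraries. The part of this share in these differences was not tested.

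Id2, a regulator of dendritic and innate lymphoid cells, differed from both other classes. It had 386 and 405 CPM in mutant and 133 and 164 CPM in control libraries of the selected cells. In Langerhans cells it had 121 and 108 CPM in mutant and 190 and 183 CPM in control libraries, and in T cells 584 and 559 CPM in mutant and 612 and 633 CPM in control libraries. The differences were 2.18 ± 0.311 against Langerhans cells (edgeR adjusted p = 0.0111) and 1.59 ± 0.258 against T cells (adjusted p = 0.000936). In the phagocyte group Id2 had 1140 and 801 CPM in mutant and 315 and 497 CPM in control libraries, and did not pass the test there (log2 fold change 1.25 ± 0.357, adjusted p = 0.585). In the glial group without the cells that stood apart, Id2 had 70.5 and 83.4 CPM in mutant and 60.3 and 30.2 CPM in control libraries. The phagocyte share of selected cells was highest in mutant 2, at 48.3%. The part of this share in the Id2 differences was not tested. Both tests against other classes share the selected cells and their libraries, so they are not independent of each other.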

How the data were processed

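The deposited files hold whole-number UMI counts per gene and cell, made by the authors with Cell Ranger 3.1.0 per the file headers. The genome was GRCm38 (mm10) per the submitters' processing notes, which list Seurat 3.2.2, Cell Ranger 2.1.1 and Scanpy 1.6.0 as well. The 4 unsorted libraries were used. Cells were filtered and selected as described above, and the members and gene lists were chosen with earlier results of these data known. UMIs were summed per library and tested with edgeR 4.0.16 (quasi-likelihood, TMM, filterByExpr, Benjamini-Hochberg adjustment, R 4.3.3), with DESeq2 1.42.0 as an alternative. Interaction fits held the library as a block. Doublets were marked with scrublet in scanpy 1.11.5 and kept in the main fits. Clustering used 2000 variable genes, 15 principal components, 10 neighbours and Leiden resolution 1.0. Exact Clopper-Pearson intervals (95%) and limits for 0 counts (3 counts) cover counting error only. The genes named were the selecting genes, called genes with a mean of at least 20 CPM and groups that do not overlap, called members of the lists with up to 4 examples per list by level, Smo, Gli1, Ptch1, Hhip, Lepr and the reporters, the 25 genes of at least 100 CPM with the highest ratio to other kept cells, and the 8 leading genes per cluster. Genes named outside these, and both groups' own lists, were chosen after values were seen. Samples with the same replicate number deviated together by a correlation of 0.0429, so the numbers were not taken as pairs. The scripts were tested on simulated data. Some genes are not reported here.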

Additional observations from a re-analysis of the deposited data

Results flagged for a closer look

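The mutant-to-control ratio of 22 genes differed between the selected cells and Langerhans cells, and that of 61 genes between the selected cells and T cells, by the interaction term of the edgeR fit. Both counts are listed here because the same contrast gave different values in 2 cell classes. Without the 6 cells that stood apart the counts were 17 and 25.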

How the results depend on the processing

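The exact tests of shares cannot go below p = 0.333 with 2 libraries per genotype, so their p-values say nothing of stability. The difference in the share of kept cells, in percentage points, was 0.0186 with mitochondrial UMIs at most 5%, and -0.151 to 0.000289 with each library left out. The difference in the share of macrophage-rule, Langerhans and T cells together was -0.0859 at a minimum of 3 UMIs and -0.42 to 0.841 with each library left out. The phagocyte group's was -0.000855 after thinning. Counts of called genes moved with most settings. In all selected cells edgeR called 4 genes, against 0 with no filter on low counts, 11 by DESeq2, 77 with the replicate block, 9 with Krt14 and Krt5 under 5 per 10000, 2 with Cd207 under 10 per 10000, 2 in the phagocyte group alone, 0 without the cells that stood apart and 0 to 52 with each library left out. In the glial group the 5 calls became 1 with no filter, 11 with the block, 2 without the cluster with fibroblast genes, 0 without the cells that stood apart and 0 to 153 with each library left out. In the phagocyte group the 2 calls became 31 with no filter, 0 without those cells and 0 to 23 with each library left out. Against Langerhans cells the 22 calls became 166 with no filter, 4 at a minimum of 12 UMIs, 8 with mitochondrial UMIs at most 5% and 5 to 108 with each library left out. Against T cells the 61 calls became 129 with no filter, 113 at a minimum of 12 UMIs, 35 with Krt14 and Krt5 under 5, 25 without the cells that stood apart and 31 to 142 with each library left out. With Cd207 under 10 per 10000 the log2 fold changes of Krt77 and Sbsn were -2.97 and -2.56, and without the cells that stood apart that of Lgals7 in the glial group was -0.09. The cause of these changes was not tested. Over single genes and settings, 116 values kept their direction and side of the threshold, 43 kept only their direction and 3 reversed. A fit of macrophage-like cells alone was not run, because 7 cells in all were left.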

Other observations

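Some genes of the phagocyte group had mutant and control values that did not overlap without passing the test, and were picked after their values were seen. Of the 1470 genes tested in this group, 35.7% did not overlap either. Nfkbia, an inhibitor of NF-kappaB, had 639 and 591 CPM in mutant and 174 and 205 CPM in control libraries (log2 fold change 1.69 ± 0.366 SE, edgeR adjusted p = 0.38). The chemokine gene Ccl3 had 138 and 90.1 CPM in mutant and 423 and 757 CPM in control libraries (edgeR adjusted p = 0.328, log2 fold change -2.36). Without the cells that stood apart, the log2 fold changes were 1.75 for Nfkbia and -2.31 for Ccl3 (edgeR adjusted p = 0.633 for each).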
